A study of Mus musculus with 4 samples.

Results

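Migratory dendritic cells (DCs) that carried transcripts of Tesc and Tubb2b were picked out of single-cell libraries from lymph nodes draining the mouse ear. A barcode, the tag of 1 droplet, entered as a DC if it had at least 500 genes, at most 10% mitochondrial UMIs, at least 1 UMI of Fscn1 (fascin, a marker of mature DCs) and 0 UMIs over 5 genes of lymphocytes (Cd3d, Cd3e, Cd3g, Cd79a and Cd79b). A UMI, or unique molecular identifier, stands for 1 captured transcript. Members were chosen by measured transcripts: at least 2 of Tesc, Tubb2b, Peli2, Crispld2, Capsl and Cd1d1 had to be detected, and these 6 genes together had to make up at least 4 of each 10000 UMIs. This gave 2312 members among 8944 DC barcodes and 15836 barcodes in all, with 1638 members in MC903-treated mice and 674 in untreated mice.

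All mice were heterozygous for the Tnfsf4KI/+ allele, a reporter that makes blue fluorescent protein (BFP) from the gene of the costimulatory ligand OX40L. MC903, a synthetic relative of vitamin D used to bring on TSLP-driven skin inflammation, was put on ears on days 0, 2 and 4, control ears were left untreated, and nodes were harvested on day 5. For either condition 5000 BFP+ and 7000 BFP- cells without B220, with intermediate CD11c and with high MHC class II were sorted, hashtagged and captured together. The 4 populations are therefore BFP+ and BFP- cells of MC903-treated mice in 1 capture and BFP+ and BFP- cells of untreated mice in the other, with 1 pool each. How many mice were pooled is not stated in the labels, and nothing replicates a pool, so no test was run. Intervals are exact 95% intervals that cover counting error only, and treatment, capture and sequencing lane cannot be told apart. The captures share 23 barcode sequences, 8 of them a member in either capture and 0 in both.

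Migratory DCs take up antigen in skin, mature, and travel through lymph vessels to the node, where they show peptides on MHC class II to T cells. CCR7 is the chemokine receptor that guides this journey. Of the genes of the rule, Tesc encodes tescalcin, a calcium-binding EF-hand protein, and Tubb2b a beta-tubulin of microtubules. Peli2 encodes a Pellino ubiquitin ligase of Toll-like and interleukin-1 receptor signalling, Crispld2 a secreted protein, Capsl a calcyphosine-like protein, and Cd1d1 the molecule that presents lipids to NKT cells.

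The hashtag oligos are shown because every statement on BFP+ and BFP- members rests on counting them. The capitals mark the whole barcode of each antibody.
Hashtag 3, MC903 BFP+: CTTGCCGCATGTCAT
Hashtag 4, MC903 BFP-: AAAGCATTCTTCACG
Hashtag 1, untreated BFP+: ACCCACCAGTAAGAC
Hashtag 2, untreated BFP-: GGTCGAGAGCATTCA

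Promoters of 2 rule genes follow, as examples of genes that were chosen because they are detected in the same barcodes. They are RefSeq sequences of GRCm38.p6, from 250 bases before to 50 bases after the start, both on the plus strand. Tesc lies at chr5:118027493-118027792 and Peli2 at chr14:48120619-48120918. The capitals mark the E-box letters CANNTG, searched on both strands.
Tesc: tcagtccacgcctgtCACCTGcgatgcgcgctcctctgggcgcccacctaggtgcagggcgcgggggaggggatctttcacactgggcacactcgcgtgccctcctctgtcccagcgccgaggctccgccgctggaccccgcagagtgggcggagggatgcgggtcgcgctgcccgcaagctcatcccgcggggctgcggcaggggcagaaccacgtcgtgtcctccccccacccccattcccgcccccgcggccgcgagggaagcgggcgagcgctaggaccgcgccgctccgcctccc
Peli2: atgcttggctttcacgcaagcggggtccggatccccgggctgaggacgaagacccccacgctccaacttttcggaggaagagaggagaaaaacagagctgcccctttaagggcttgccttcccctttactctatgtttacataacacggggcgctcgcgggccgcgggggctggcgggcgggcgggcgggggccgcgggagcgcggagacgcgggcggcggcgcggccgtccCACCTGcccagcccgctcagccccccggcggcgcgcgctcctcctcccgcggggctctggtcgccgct
Each holds 1 such match, and 72.3% of 32851 promoters of the same length hold at least 1. The match is a description of letters only.

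The genes of the rule chose the members, so their levels are given as a description with no test. Levels are UMIs of the gene summed over barcodes, per 1000000 UMIs of those barcodes (CPM). Tubb2b, on chromosome 13 of GRCm38 from 34126748 to 34130466, was the most abundant, at 472 CPM in MC903 members and 38.3 CPM in other MC903 DC barcodes. Its level was 358 CPM in untreated members and 61.3 CPM in other untreated DC barcodes. Tesc, on chromosome 5 from 118027743 to 118061878, was at 131 CPM in MC903 members and 8.87 CPM in other MC903 DC barcodes. It was at 74.0 CPM in untreated members and 9.16 CPM in other untreated DC barcodes. Crispld2 stood at 282 and Cd1d1 at 173 CPM in MC903 members, and Peli2 (70.7 CPM) and Capsl (72.7 CPM) were the least abundant of the 6.

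**Figure D1:**
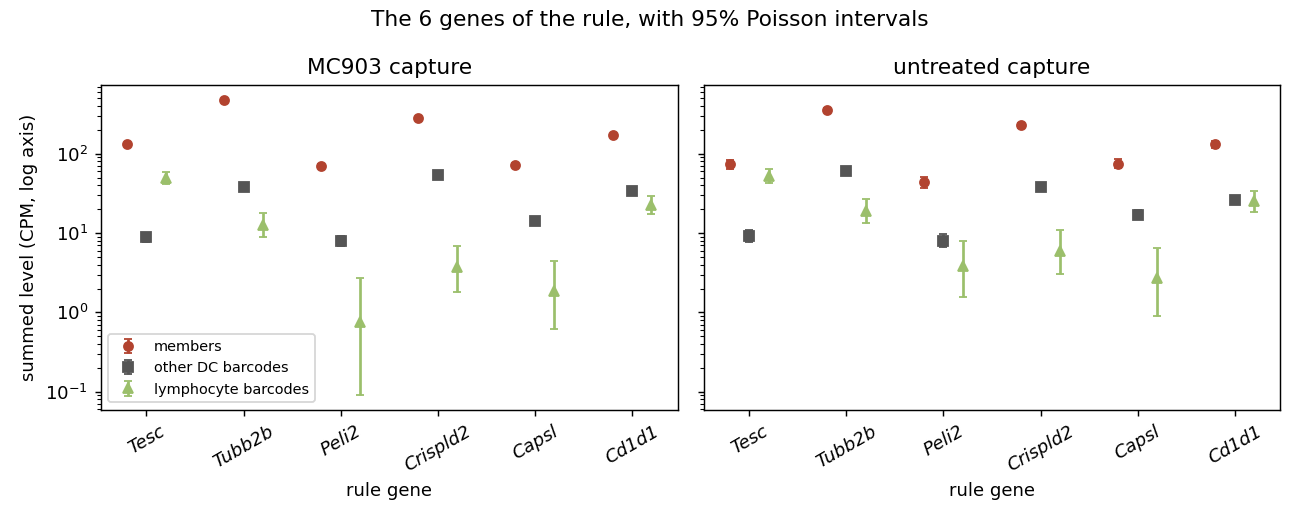
Summed level in CPM on a log axis of the 6 rule genes in members, other DC barcodes and lymphocyte barcodes of each capture, with 95% Poisson intervals. Members are highest for each of the 6 genes, and Tesc in lymphocyte barcodes (49.4 CPM in the MC903 capture and 53.2 CPM in the untreated capture) lies above other DC barcodes.

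Lymphocyte barcodes, with 0 Fscn1 UMIs and at least 2 UMIs of the Cd3 and Cd79 genes, give the share that meets the step on the 6 genes outside DCs. It was 1.93% of 570 barcodes in the MC903 capture and 2.23% of 493 in the untreated capture, at median depths of 3601 and 2835 UMIs. Tesc was thus also detected outside DC barcodes.

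Members of the MC903 capture carried more of the 6 genes per barcode. Exactly 2 of the 6 were detected in 339 MC903 members (20.7%), 5 in 303 and all 6 in 127. Of the untreated members, 469 (69.6%) had exactly 2, 21 had 5 and 1 had 6. Depth moves with this: members had a median of 10703 UMIs in the MC903 capture and 3501.5 in the untreated capture, and its part in the difference was not tested.

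Barcodes just inside the threshold, at 4 to under 5 per 10000, numbered 166 in the MC903 capture with a median of 4.46 per 10000. Those just outside, at 3 to under 4 with at least 2 genes, numbered 201 with a median of 3.51. Among untreated DC barcodes 76 lay just inside (median 4.46) and 53 just outside (median 3.48).

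The overlap of the 6 genes in barcodes is described by choosing barcodes on 5 of them and reading the gene left out, with the thresholds kept. The 6 genes were put together with these data known, so the values describe the rule and support nothing. In the MC903 capture left-out Tesc was at 128 CPM in chosen and 17.0 CPM in remaining DC barcodes, a log2 ratio of 2.91 (2.76 to 3.06). Left-out Cd1d1 had the smallest ratio there, 1.22 (1.13 to 1.31). Untreated ratios ran from 0.80 for Capsl (0.50 to 1.09) to 1.42 for Tesc (1.11 to 1.73). After each barcode was thinned to 2000 UMIs, left-out Peli2 in the untreated capture was at 14.8 CPM in chosen and 11.9 CPM in remaining barcodes, a log2 ratio of 0.31 whose interval of -0.54 to 1.08 includes 0.

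Members made up 39.3% of DC barcodes in the MC903 capture (1638 of 4169, 37.8% to 40.8%) and 14.1% in the untreated capture (674 of 4775, 13.1% to 15.1%). The captures differ in depth, so each barcode was also thinned to 1 number of UMIs before the rule was applied. At 5000 UMIs the shares were 40.7% in the MC903 capture and 24.6% in the untreated capture, with 400 and 3901 shallower DC barcodes left out. At 2000 UMIs they were 20.3% in the MC903 capture and 8.32% in the untreated capture, with 43 and 808 left out. The share was higher in the MC903 capture at each depth, and its size depended on the depth.

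Within each capture the share was higher in BFP+ cells. In MC903 mice 50.3% of BFP+ DC barcodes (654 of 1301, 47.5% to 53.0%) and 33.1% of BFP- DC barcodes (765 of 2313, 31.2% to 35.0%) were members. In untreated mice 23.0% of BFP+ (173 of 751, 20.1% to 26.2%) and 15.4% of BFP- (335 of 2181, 13.9% to 16.9%) were. At 5000 UMIs the shares were 50.04% of MC903 BFP+ and 34.7% of MC903 BFP- DC barcodes, and 33.2% of untreated BFP+ and 21.7% of untreated BFP- DC barcodes. Hashtags left 64 MC903 and 132 untreated members unlabelled, and called 155 MC903 and 34 untreated members doublets. Of the unlabelled untreated DC barcodes 7.92% were members, at a median of 2284 UMIs over those DC barcodes. Barcodes were also assigned by their dominant hashtag, which had to hold at least 80% of their hashtag counts, and all others were left out. This gave 356 untreated BFP+ and 3241 untreated BFP- DC barcodes, in place of 751 and 2181. Under that rule 27.8% of untreated BFP+ and 10.9% of untreated BFP- DC barcodes were members.

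**Figure D2:**
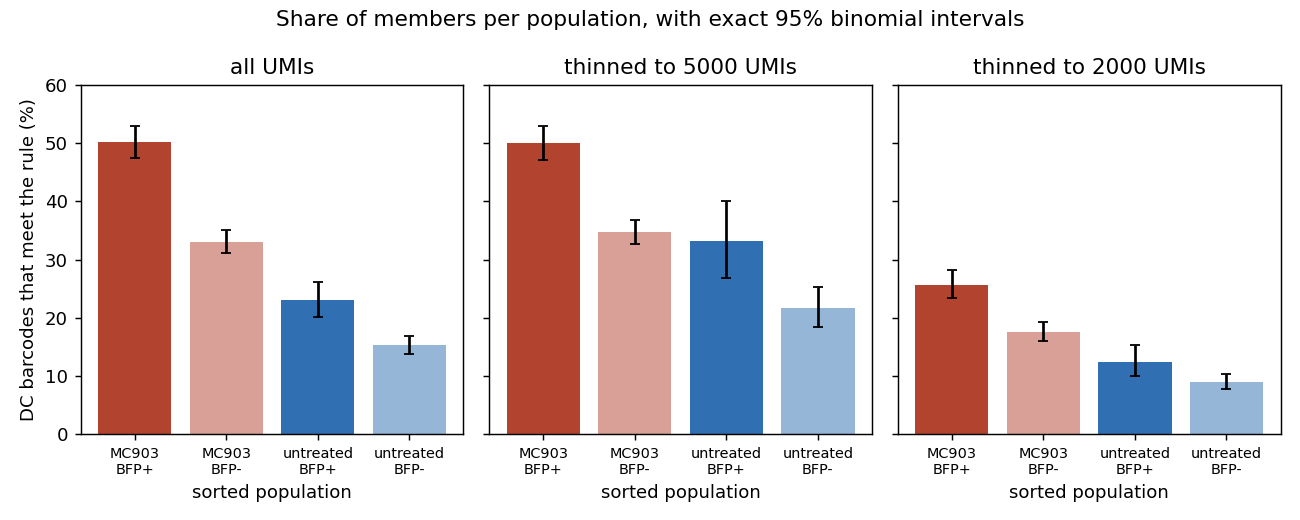
Share of DC barcodes that meet the rule in percent for each sorted population, with exact 95% binomial intervals, with all UMIs and after thinning to 5000 and 2000 UMIs. BFP+ bars stand above BFP- bars of the same capture in each panel.

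Members held fewer Ccr7 transcripts than other DC barcodes in the MC903 capture and not in the untreated capture. Ccr7 (chromosome 11 of GRCm38, 99144196 to 99155077) was at 2298 CPM in MC903 members and 2991 CPM in other MC903 DC barcodes, a log2 ratio of -0.38 (-0.40 to -0.36). Among untreated DC barcodes it was at 2537 CPM in members and 2503 CPM in other DC barcodes, a ratio of 0.02. After thinning to 2000 UMIs the mean was 4.74 Ccr7 UMIs per MC903 member and 6.22 per other MC903 DC barcode, against SDs over barcodes of 3.82 and 5.16. The means in the untreated capture were 5.13 in members and 5.13 in other DC barcodes. A lower Ccr7 level was thus measured in MC903 members and not in untreated members, and MC903 members kept a median of 4 Ccr7 UMIs at that depth.

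The MC903 ratio was smaller once members were set against DC barcodes of the same clusters. With other DC barcodes weighted to the members' spread over clusters it lay between -0.19 and -0.045 over 10 clusterings that differed in their random seed, and between -0.042 and 0.11 in the untreated capture. Over rising levels of the 6 genes, Ccr7 in the MC903 capture was at 3098 CPM in barcodes with 0 UMIs of the 6 genes, 2596 CPM at 4 to under 8 per 10000 and 2214 CPM at 16 or more. The same levels held 2508, 2587 and 2205 CPM in untreated barcodes.

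**Figure D3:**
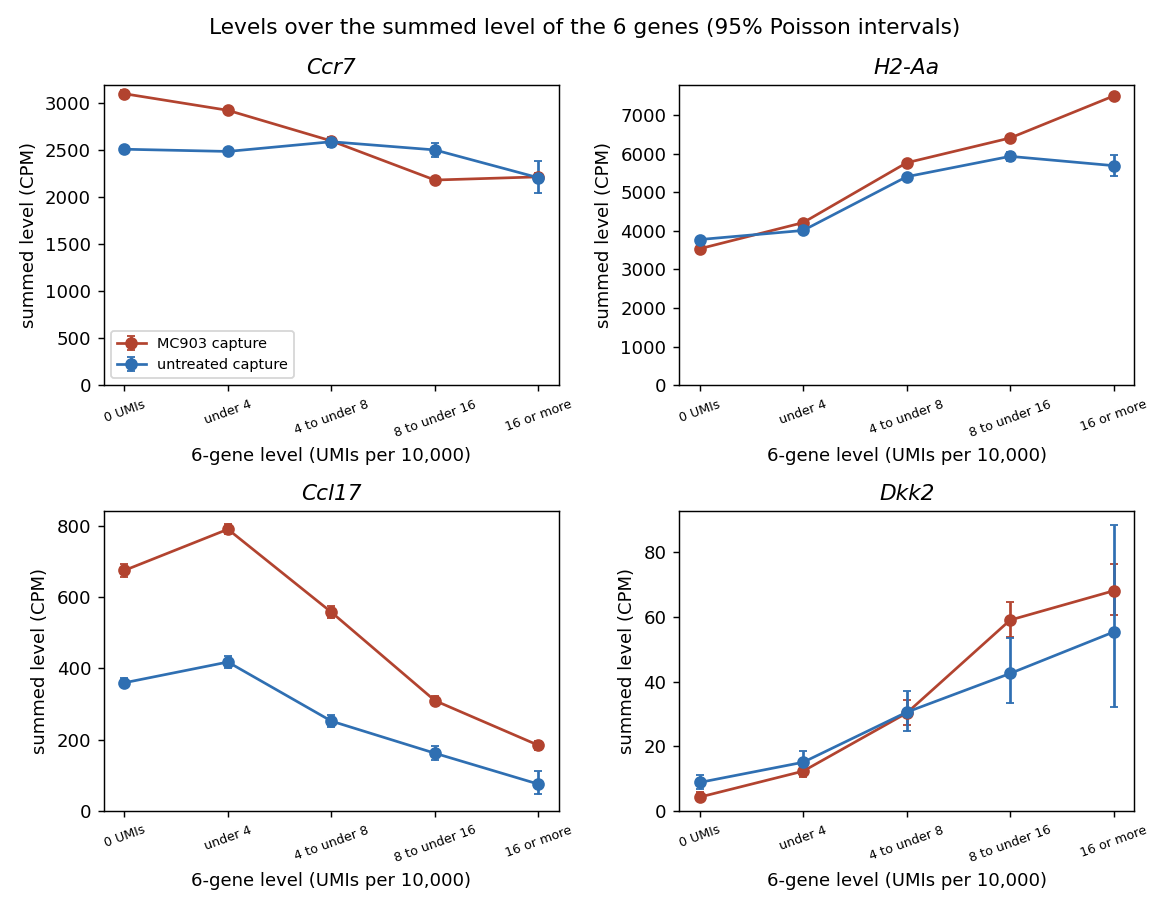
Summed level in CPM of Ccr7, H2-Aa, Ccl17 and Dkk2 over the level of the 6 rule genes per 10000 UMIs, MC903 and untreated captures, with 95% Poisson intervals. H2-Aa and Dkk2 are higher and Ccl17 lower in the bins at and above 4 than in the bin with 0 UMIs in both captures; these genes were chosen after their values were seen.

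Across all genes at 20 CPM or more on either side, 225 of 4873 (4.62%) lay past 1.5-fold higher and 256 (5.25%) past 1.5-fold lower in MC903 members than in other MC903 DC barcodes, 9.87% in all. Untreated members were higher than other untreated DC barcodes in 113 of 4998 genes (2.26%) and lower in 131 (2.62%), 4.88% in all. In both captures 73 of 4682 genes (1.56%) were higher and 37 (0.79%) lower. With TMM scaling, which assumes that most genes do not differ, the MC903 split moved to 334 higher and 146 lower, and the untreated split to 139 higher and 102 lower. The median over all genes moved from -0.07 to 0.06 on the log2 scale in the MC903 capture.

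The genes with the largest ratios shared by both captures were led by Dkk2, a secreted Wnt antagonist. It was at 52.2 CPM in MC903 members and 9.61 CPM in other MC903 DC barcodes, a log2 ratio of 2.44 (2.23 to 2.65), and at 46.9 CPM in untreated members and 12.0 CPM in other untreated DC barcodes, a ratio of 1.97 (1.65 to 2.28). Atp1b1, the beta subunit of the sodium-potassium pump, had ratios of 2.72 and 1.61. Neither gene was even over members in the clustering of 1 seed. In the cluster of MC903 barcodes with most Asprv1, the 159 members held 1 Dkk2 UMI and 12.2 CPM of Atp1b1. In members of the 2 clusters with most MC903 members, Dkk2 was at 71.3 and 84.2 CPM and Atp1b1 at 80.4 and 159 CPM. Il2ra, the CD25 chain of the interleukin-2 receptor, was at 135 CPM in MC903 members and 46.4 CPM in other MC903 DC barcodes. Its untreated levels were 79.2 CPM in members and 40.6 CPM in other DC barcodes.

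Surface and signalling genes among the 15 named each way included Tnfrsf4, the OX40 receptor of OX40L, with log2 ratios of 1.02 in MC903 and 1.09 in untreated mice. Cd200, an inhibitory ligand, was at 247 CPM in MC903 members and 108 CPM in other MC903 DC barcodes, and at 108 CPM in untreated members and 54.1 CPM in other untreated DC barcodes. Siglecg, a sialic-acid-binding inhibitory receptor, had ratios of 1.24 and 1.01. Esam, a cell adhesion molecule, had 1.09 and 1.15. Asprv1, an aspartic protease, had 1.29 and 1.21, but 806 of its 1263 UMIs in MC903 members came from the 159 members of 1 cluster, at 446 CPM. That cluster is led by Oasl1, Asprv1, Ifi211 and Laptm4b, and Asprv1 was at 29.9 and 16.7 CPM in the members of the 2 clusters with most MC903 members. The small GTPase gene Rab38 had 1.66 and 1.14. The actin-severing protein gene Scin, cyclin D2 gene Ccnd2, Hopx, Gria3 and Prnp were the others, with ratios from 0.93 to 1.13.

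Among genes lower in members, Slamf1, a receptor of activated lymphocytes and DCs, was at 33.9 CPM in MC903 members and 127 CPM in other MC903 DC barcodes, a log2 ratio of -1.91 (-2.03 to -1.79). Its untreated ratio was -0.93. Epcam, an adhesion molecule that Langerhans cells carry, had -2.05 and -0.86. Langerhans markers summed to 81.2 CPM in MC903 members and 185 CPM in other MC903 DC barcodes, and to 238 CPM in untreated members and 381 CPM in other untreated DC barcodes. Mtss1 (-2.17 and -0.89) and Lmna, the nuclear lamin A gene (-1.61 and -0.88), were lower as well, as were Arhgef12, Yes1, Mki67, Rasgef1b, Ttc39b, Prelid2 and Ank. Lyz2, lysozyme of myeloid cells, had -0.87 and -1.32, and monocyte and macrophage markers summed to 99.6 CPM in MC903 members and 187 CPM in other MC903 DC barcodes. The part of these other cells in the ratios was not tested.

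Bpifa2 and Amy1, genes of salivary glands, met the naming rule through single barcodes. Of the Bpifa2 UMIs of other DC barcodes in the MC903 capture, 92.5% came from 1 barcode. Without that barcode Amy1 in the MC903 capture had a log2 ratio of 0.20, the opposite direction.

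**Figure D4:**
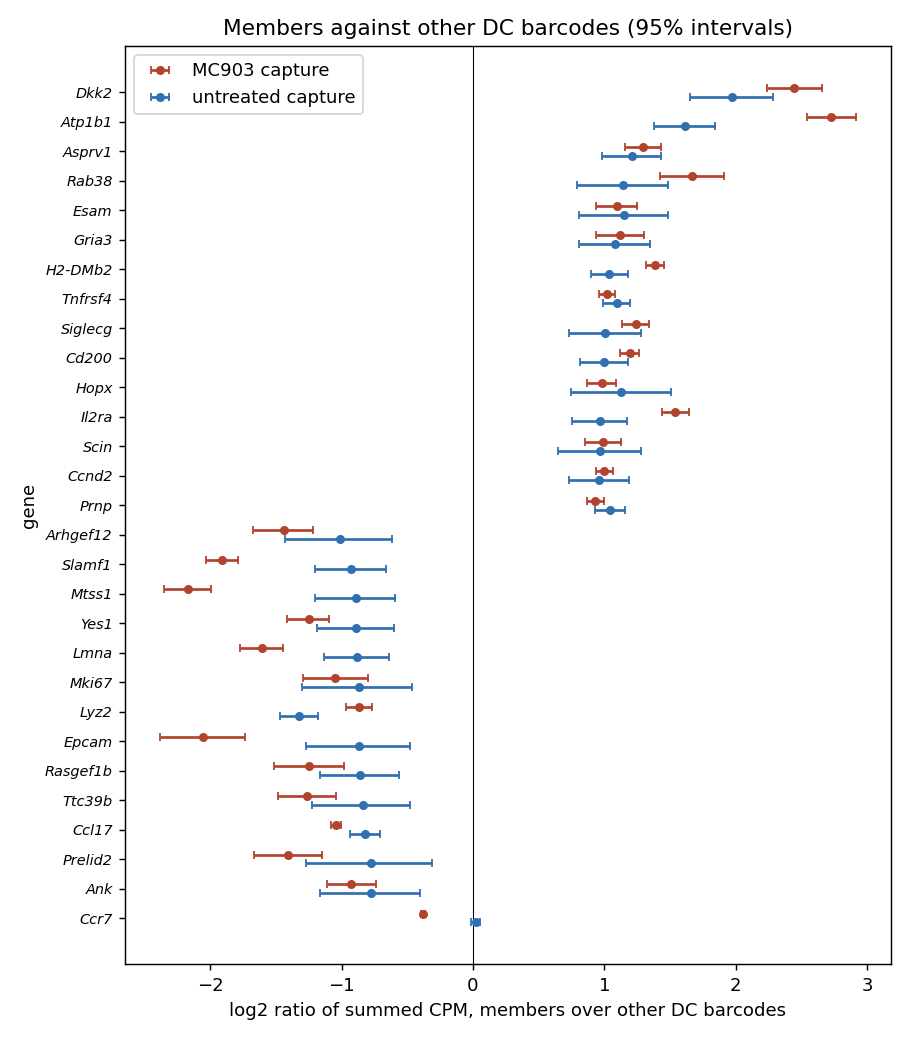
Log2 ratio of summed CPM of members over other DC barcodes for the named genes and Ccr7, in both captures, with 95% intervals. Bpifa2 and Amy1 are left out; Ccr7 is at -0.38 in the MC903 capture and 0.02 in the untreated capture.

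Genes of antigen presentation on MHC class II were the list with the most members higher. Of 12 genes at 20 CPM, 9 were past 1.5-fold higher and 0 lower in MC903 members, where 4.62% of all genes were higher. Their median log2 ratio was 0.72 against -0.07 over all genes. Among untreated members 6 of 12 were higher and 0 lower, where 2.26% of all genes were higher. The median was 0.52 against -0.02 over all genes. Ciita, the master regulator of the class II genes, was at 142 CPM in MC903 members and 71.0 CPM in other MC903 DC barcodes. H2-DMb2, a chain of the peptide-loading catalyst, had ratios of 1.39 and 1.04. The sort gated on high MHC class II protein. Inside single clusters with at least 100 members and 100 other DC barcodes of a capture, the class II ratios varied. H2-Aa had log2 ratios of 1.49, 0.17, -0.17 and -0.16 in such MC903 clusters, and 0.46 and 0.43 in untreated ones. Ciita had 2.74, 0.30, -0.38 (-1.15 to 0.37) and -0.79, and 0.72 and 1.12, in the same order. These clusters come from 1 random seed.

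Of 15 cytokine and chemokine genes at 20 CPM, 8 were lower and 1 higher in MC903 members, with a median of -0.84, where 5.25% of all genes were lower. Of 16 in the untreated capture 6 were lower and 0 higher, with a median of -0.53, where 2.62% of all genes were lower. Ccl17, a ligand of CCR4, was at 362 CPM in MC903 members and 745 CPM in other MC903 DC barcodes, and at 206 CPM in untreated members and 364 CPM in other untreated DC barcodes. Its partner Ccl22 had log2 ratios of -0.91 and -0.54, and Ccl5 had -1.27 and -0.54. Inside the single clusters of 1 seed used for the class II genes, Ccl5 had -1.25, 0.22, -1.08 and -0.47 in MC903 clusters. The 0.22 (0.15 to 0.29) was in the cluster with most MC903 members. In untreated clusters Ccl5 had -0.42 and -0.23. Over the clusters of both captures, Ccl22 ran from -0.74 to -0.26 and Ccl17 from -0.50 to -0.11.

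More costimulatory and checkpoint ligands were past 1.5-fold higher than lower in members of both captures. In MC903 members 3 of 11 were higher and 1 lower, with a median log2 ratio of 0.33, beside 4.62% higher and 5.25% lower over all genes. In untreated members 4 of 9 were higher and 0 lower, with a median of 0.54, beside 2.26% higher and 2.62% lower over all genes. Icosl had 1.06 in the MC903 capture, and Cd80 had -0.28 in the MC903 capture and 0.93 in the untreated capture. Among guidance receptors at 20 CPM, Gpr183, an oxysterol receptor that positions DCs in lymphoid tissue, was higher in both captures, at 489 CPM in MC903 members and 232 CPM in other MC903 DC barcodes. It had log2 ratios of 1.08 and 0.81. Ccr7 had -0.38 and 0.02, so Gpr183 does not stand for guidance receptors as a list. Of the other tubulin and microtubule genes at 20 CPM, 2 of 12 were higher and 0 lower in MC903 members, with a median of 0.0037. In untreated members 0 of 14 were higher and 1 lower, with a median of 0.059. The shares over all genes are those given above for the costimulatory ligands. The 2 tubulin genes higher in MC903 members were Tubb5 (0.79 in MC903 and 0.51 in untreated mice) and Tubb2a (0.96 and 0.51).

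Clusters were made without the rule genes, and their boundaries were not stable. Over 10 random seeds the adjusted Rand index to the first was 0.53 at the lowest, and 14 to 17 clusters formed. The highest member share of a cluster with at least 100 DC barcodes was 81.4% in the MC903 capture (80.9% to 87.5% over the seeds) and 59.2% in the untreated capture (20.5% to 60%). Such clusters in which members outnumbered other DC barcodes held 63.2% to 68.9% of MC903 members and 0% to 10.5% of untreated members over the seeds. With the first seed, the 2 clusters with most untreated members were 16.5% and 10.7% members among their untreated barcodes, beside 14.1% over that capture. Shares among nearest neighbours need no cluster boundaries, but they come from the same neighbour graph as the clusters and are not separate support. Among the nearest neighbours of an MC903 member in the same capture, a mean of 74.9% were members, against 18.2% for other MC903 DC barcodes and 39.3% over the capture. The untreated means were 36.3% for members and 11.9% for other DC barcodes, against 14.1% over the capture.

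Members were not 1 uniform group. The cluster of MC903 barcodes with most Asprv1 was found at each of the 10 seeds with 351 to 403 barcodes and 147 to 160 members, which held 27.4 to 30.9 CPM of Tesc and 2210 to 2411 CPM of H2-Aa. The cluster with most Gprin2 held members with 180 to 203 CPM of Tesc and 8415 to 9616 CPM of H2-Aa. Ccr7 ran from 2082 to 3198 CPM in members of the Gprin2 cluster and from 2421 to 2527 CPM in members of the Asprv1 cluster. Other MC903 DC barcodes held 2991 CPM, so low Ccr7 did not mark members of the Gprin2 cluster at each seed. The Ccr7 level of members in the cluster with most Dbn1 ran from 1274 to 2334 CPM over the seeds, so it depends on where the boundary falls. These cluster groups were chosen after their values were seen.

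MC903 members and untreated members differed past 1.5-fold in 569 of 4871 genes (11.7%), 257 higher (5.28%) and 312 lower (6.41%). With TMM scaling 424 were higher and 171 lower, and the median over all genes moved from -0.05 to 0.10. Different clusters held most members in the captures in the clustering of the first seed, and such shares depend on the seed. Over the 10 seeds the cluster with most Dbn1 held 19.6% to 45.1% of MC903 members, and that with most Gprin2 18.6% to 46.2%. With the first seed, the 2 clusters with most MC903 members held 34.8% and 22.8% of MC903 members, and 2.67% and 10.5% of untreated members. The 2 with most untreated members held 1.89% and 1.04% of MC903 members, and 43.0% and 17.2% of untreated members. Marker levels moved along. Langerhans markers summed to 81.2 CPM in MC903 members and 238 CPM in untreated members, mature cDC1 markers to 325 CPM in MC903 members and 694 CPM in untreated members, and monocyte and macrophage markers to 99.6 CPM in MC903 members and 199 CPM in untreated members. The part of clusters, markers and depth in the differences was not tested. Among the rule genes, Tesc was at 131 CPM in MC903 members and 74.0 CPM in untreated members, and Capsl at 72.7 CPM in MC903 members and 75.4 CPM in untreated members. Thy1, a surface glycoprotein best known from T cells, was at 96.2 CPM in MC903 members and 9.90 CPM in untreated members, a log2 ratio of 3.28 (2.79 to 3.81). In the untreated members 44% of the Thy1 UMIs came from 1 barcode. T cell markers summed to 40.8 CPM in MC903 members and 124 CPM in untreated members, and Cd3d, Cd3e and Cd3g were at 0 by the rule.

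Thy1 or Dll4, a Notch ligand, was detected in 32.0% of MC903 members (524 of 1638) and 7.27% of untreated members (49 of 674). Among other DC barcodes it was detected in 6.20% in the MC903 capture and 4.07% in the untreated capture, where depth was lower. Further genes higher in MC903 members were Dbn1, the actin-binding drebrin, at 31.2 CPM in MC903 members and 3.20 CPM in untreated members, and Cish, a target of STAT5, with a ratio of 2.97 (2.28 to 3.76). Vdr, the vitamin D receptor that MC903 binds, was at 25.4 CPM in MC903 members and 4.95 CPM in untreated members, from 476 and 17 UMIs. Ifitm1, Mylk, Plek2 and Gstt1 had ratios from 2.36 to 3.39.

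Genes lower in MC903 members included Clu, clusterin, at 63.9 CPM in MC903 members and 330 CPM in untreated members, and Cxcl1, a chemokine for neutrophils, at 36.2 and 153 CPM in the same order. Calm4 had a log2 ratio of -2.77 and Ehf, an epithelial transcription factor, -2.71. Cd209d, Tnni1, Cdhr1, S100a3, Scube3, Fxyd2, M1ap and Mpeg1 had ratios from -4.03 to -1.93. In untreated members 1 barcode held 32 of the 81 Tnni1 UMIs and 1 held 29 of the 72 S100a3 UMIs. Other DC barcodes also differed between the captures, with 184 of 5017 genes higher in MC903 (3.67%) and 225 lower (4.48%), 8.15% in all. Cish had a ratio of 2.92 there and 2.97 in members, and Clu -2.16 there and -2.37 in members. For Thy1 the ratio was 1.18 in other DC barcodes and 3.28 in members, and for Gstt1 0.32 and 2.36. Whether members and other DC barcodes differ in these ratios was not tested.

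Amy1, Smr3a, Bpifa2 and Chia1, salivary genes, were higher in MC903 members. Bpifa2 was at 206 CPM in MC903 members and 2.91 CPM in untreated members, and Chia1 was at 0 UMIs in untreated members, so its fold is a lower bound.

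**Figure D5:**
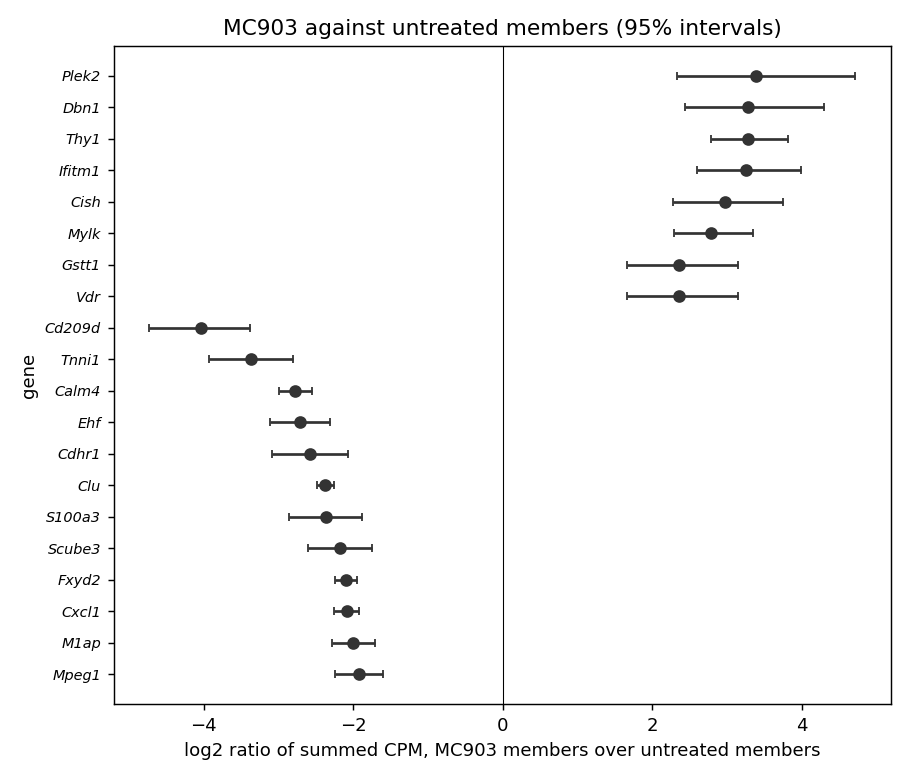
Log2 ratio of summed CPM of MC903 members over untreated members for the named genes, with 95% intervals; 4 salivary genes are left out. Thy1 and Dbn1 are at 3.28, and Clu is at -2.37.

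BFP+ and BFP- members of MC903 mice differed past 1.5-fold in 129 genes, 54 higher (1.15% of 4686) and 75 lower (1.6%), 2.75% in all. Tnfsf4, the gene that carries the reporter, was at 42.5 CPM in BFP+ members and 6.94 CPM in BFP- members of MC903 mice, and at 31.6 CPM in BFP+ members and 12.4 CPM in BFP- members of untreated mice. In untreated mice 317 genes were higher (6.31% of 5025) and 410 lower (8.16%), 14.5% in all, from 173 BFP+ and 335 BFP- members. Those members had medians of 3904 and 3752 UMIs. The 654 BFP+ and 765 BFP- members of MC903 mice had medians of 10776 and 10689 UMIs. Fewer counts widen the counting error of each ratio, and its part in the higher untreated share was not tested. Cd70, a ligand of CD27, was at 47.5 CPM in BFP+ members and 19.7 CPM in BFP- members of MC903 mice, and Myl7 and Rac2 had ratios of 1.62 and 1.32. Tnfrsf4 was at 241 CPM in BFP+ members and 361 CPM in BFP- members of MC903 mice, and at 288 CPM in BFP+ members and 366 CPM in BFP- members of untreated mice.

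Mature cDC1 markers were lower in BFP+ members. Of 7, 6 were lower in MC903 mice and 7 in untreated mice, with 0 higher in either. Over all genes 1.6% were lower in MC903 mice and 8.16% in untreated mice. Their summed level was 152 CPM in BFP+ members and 450 CPM in BFP- members of MC903 mice, and 365 CPM in BFP+ members and 859 CPM in BFP- members of untreated mice, and its part in the other BFP differences was not tested. Asprv1 was at 14.3 CPM in BFP+ members and 112 CPM in BFP- members of MC903 mice, and at 31.6 and 92.2 CPM in the same order in untreated mice. MHC class II genes at 20 CPM numbered 12, of which 4 were higher in BFP+ members of MC903 mice and 9 in untreated mice. Over all genes 1.15% were higher in MC903 mice and 6.31% in untreated mice. Retnla met the naming rule in MC903 mice with 671 UMIs in BFP+ members and 2 in BFP- members of MC903 mice, while 668 of its 675 UMIs in MC903 members came from 1 barcode.

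Erythroid markers summed to 920 CPM in BFP+ members and 0.562 CPM in BFP- members of untreated mice, with all 989 UMIs of the BFP+ members in 1 barcode. No gene of that list is therefore described further.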

How the data were processed

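For every barcode the authors deposited the UMI count of each gene and hashtag. Cell Ranger 3.1.0 is named in the file headers, and the submitters' processing notes name GRCm38 as the genome build. Of the columns of values, 0 were left unused. Members and gene lists were chosen with earlier results of these data known. Total counts were 57148072 UMIs in the MC903 capture and 33525154 in the untreated capture.

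Hashtags were called with HTODemux (Seurat 5.3.0, R 4.3.3, quantile 0.99) after a centred log ratio within each barcode. This scaling was chosen from hashtag counts: scaling across barcodes gave 278 untreated BFP+ calls with at least 80% of counts from the BFP- hashtag, and scaling within barcodes 0. Under the scaling used, 593 of 1260 untreated BFP+ calls had at least 80% of counts from the BFP+ hashtag, against 1700 of 1742 MC903 BFP+ calls. Doublets called by hashtag stayed in capture-wide sums and left the BFP comparisons; no other doublet caller was run.

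UMIs were summed per group in Python 3.11.15 (scipy 1.17.1). A log2 ratio has the exact conditional interval of 2 Poisson counts, with 3 counts in place of 0. Named genes were the 15 each way with the largest smaller ratio of both captures (members), 12 each way (treatment) and 6 each way (BFP), at 20 CPM. Shares have Clopper-Pearson intervals. Clusters used scanpy 1.11.5 with 2000 variable genes, 30 components, 15 neighbours and Leiden resolution 0.8. Weighted edges were tried first. They were dropped after those partitions had been seen, because the partitions changed with the processor's arithmetic. edgeR 4.0.16 supplied TMM factors. The interval calculation was tested on simulated data. The result of 1 gene that met the naming rule is not reported here.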

Additional observations from a re-analysis of the deposited data

Results flagged for a closer look

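In the genes given here the BFP+ against BFP- ratio of members ran in opposite directions in the captures, with both intervals clear of 0. The difference was not tested, since each population is 1 pool. Ccr7 had log2 ratios of -0.15 in MC903 members and 0.17 in untreated members. Retnla had 8.58 and -1.50, Ccl3 -4.79 and 3.73, and Ccl4 -4.70 and 2.73. Tnni1 had 2.02 and -4.63. In MC903 members 1 barcode held 668 of 675 Retnla UMIs, and 1 barcode held 72.5% of the Ccl3 and 1 held 76.2% of the Ccl4 UMIs. In untreated members 1 barcode held 21 of 27 Ccl3 UMIs, 1 held 18 of 37 Ccl4 UMIs and 1 held 32 of 81 Tnni1 UMIs. The opposite directions ended for Ccl3, whose untreated ratio was -0.33 at 5% mitochondrial UMIs and -0.37 by the dominant hashtag, and for Ccl4, whose MC903 ratio was 0.97 with hashtags scaled across barcodes.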

How the results depend on the processing

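The share of members in the MC903 and untreated captures was 25.4% and 7.90% at 8 per 10000 UMIs, 31.2% and 4.29% with at least 3 genes, and 20.3% and 8.32% at 2000 UMIs. It was 44.6% at 5% mitochondrial UMIs in the MC903 capture. In the untreated capture it was 17.9% with 1000 genes, 15.1% with 2 Fscn1 UMIs and 24.6% at 5000 UMIs. The untreated log2 ratio of BFP+ over BFP- shares, 0.58, was 0.88 with 3 genes and 1.35 by the dominant hashtag. The dominant hashtag setting leaves out barcodes in which neither hashtag held at least 80% of the hashtag counts.

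Genes higher in both captures numbered 116 with 3 genes, 147 against deep barcodes without the 6 genes, and 145 with a 50 UMI minimum. Genes lower numbered 58 at 8 per 10000, 90, 22 with TMM, 107 and 398. MC903 over untreated members gave 424 and 171 with TMM, and 659 and 1094 with the UMI minimum. Untreated BFP+ members had 622 lower genes by the dominant hashtag.

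Ccr7 in the MC903 capture was -0.40 at 8 per 10000 and at 5% mitochondrial UMIs, -0.26 with TMM, -0.42 against deep barcodes, and -0.19 to -0.045 within clusters. In the untreated capture it was -0.025 at 8 per 10000, -0.023 with 3 genes, 0.075 with TMM, -0.050 against deep barcodes, and -0.042 to 0.11 within clusters. Left-out Tubb2b, Peli2 and Cd1d1 in the untreated capture were 0.99, 0.31 and 0.52 when thinned. The highest cluster share was 91.5% and 42.3% at resolution 1.2, and over seeds reached 87.5% in the MC903 capture and fell to 20.5% in the untreated capture.

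Reversed single genes were Bpifa2 (0.11) and Amy1 (0.026) against deep MC903 barcodes, Amy1 without 1 salivary barcode (0.20), MC903 Fscn1 with TMM (0.0085), and among BFP ratios MC903 Ccl4 (0.97) and untreated Fscn1 (0.088) with hashtags scaled across barcodes, and untreated Ccl3 at 5% mitochondrial UMIs (-0.33) and by the dominant hashtag (-0.37). The cause was not tested. Hashtag scaling across barcodes, removal of a salivary barcode, seeds, cluster weighting and the unweighted graph were chosen after seeing the data. No paired analysis was possible because each population is 1 pool. The untreated depth limits the rarer genes.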
